A study of Homo sapiens with 12 samples.

Results

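The F-box and Kelch adaptor genes were chosen by symbol, as every gene named FBXL, FBXO, FBXW or KLHL followed only by digits. Of the 26334 gene symbols with deposited counts, 100 met this rule, namely 17 FBXL, 37 FBXO, 9 FBXW and 37 KLHL genes. Averaged over the 12 libraries, 69 of them reached 10 counts or more (12 FBXL, 28 FBXO, 7 FBXW and 22 KLHL) and could be tested. The other 31 fell below this filter, and 7 of those had no count in any library.

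Most proteins encoded by these genes are substrate adaptors of cullin-RING ubiquitin ligases, in which a cullin scaffold holds the ubiquitin-transferring RING protein at one end and an adaptor that picks the substrate at the other. F-box proteins reach CUL1 through the linker SKP1, and their letter names the substrate-binding part: leucine-rich repeats in FBXL, WD40 repeats in FBXW and other domains in FBXO. KLHL proteins bind CUL3 directly through a BTB domain and read substrates with Kelch repeats. Many of their known substrates are cell-cycle and signalling proteins that are made and destroyed within hours.

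RNA-Seq was run on the Ewing sarcoma cell line A673, an established line that the labels call shA673-1c, after 0, 1, 2 and 4 h in 5 µM actinomycin D, with 3 biological replicates per time and 12 poly(A)-selected stranded libraries in all. Actinomycin D blocks transcription, so the time course asks how quickly each transcript disappears once it is no longer made. All libraries came from the same line grown with blasticidin and zeocin, the 0 h libraries stand for no time in the drug, and no culture without the drug was followed to 4 h. The authors deposited raw counts per gene, and levels are given here as CPM, the counts scaled to a common library size, after TMM scaling, a correction for differences in library composition.

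Library totals ranged from 9147018 to 11194705 counts. Of the 9 Ewing sarcoma markers checked, 8 had a mean of at least 10 counts and together they stood at 4447 to 5133 CPM. Most of this sum came from CAV1 (21374 to 32168 counts) and CCND1 (15630 to 20886). The other counted markers ran from NKX2-2 (7 to 87) to PRKCB (1015 to 1789). CD99, a defining surface marker of this tumour, was listed at 0 in all 12 libraries. CD99 lies in a pseudoautosomal region, a stretch shared by the X and Y chromosomes, and all 17 protein-coding pseudoautosomal genes in the table were at 0 throughout, so this 0 cannot be read as absence of CD99. The 5 endothelial markers summed to at most 1.29 CPM and the 4 leukocyte markers to at most 0.863 CPM, and of 3 epithelial markers KRT18 was counted (2104 to 3862 counts) while EPCAM and CDH1 had at most 6 and 1 counts. MYC, JUN and IER2, whose mRNAs are known to be short-lived, fell by 1.12, 0.89 and 0.84 log2 units per hour, in the direction that the time labels give.

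The 100 genes together held 0.228 to 0.237% of the counts at 0 h and 0.154 to 0.160% at 4 h, and the libraries of the 2 times did not overlap. A straight line in time was fitted to each gene with edgeR, which gives a slope in log2 units per hour. Of the 69 tested members, 37 (53.6%) fell at an adjusted p below 0.05, where 32.4% of all 12032 genes tested fell, and 13 (18.8%) rose, where 29.9% of all genes rose. With replicate numbers in the fit as a block, 38 fell (35.1% of all genes) and 16 rose (35.3% of all genes). The median slope was -0.10 in the members and 0.0070 in all genes. Scaling to the summed counts of GAPDH and ACTB moved the median slope of all genes by -0.135, and with it 53 members fell (64.2% of all genes) and 0 rose (0.931% of all genes, and 1 member at an unadjusted p below 0.05), so every rising call of the slope depended on the scaling. GAPDH and ACTB themselves had slopes of 0.149 and 0.120 under TMM, so scaling to them lowers the slope of every gene by a similar amount. With this shift the slope turned below 0 for 11 of the 13 and stayed above 0 for FBXL6 and FBXW4. Which scaling lies nearer to the amounts per cell was not tested. Because members and other genes move together when the scaling is changed, the difference between their medians could hardly differ between scalings. The median of the members minus that of all genes was -0.110 under TMM and -0.110 under GAPDH and ACTB scaling. This match is built in and is no separate check of the result. A rise therefore says that a transcript gained share in the remaining poly(A) RNA, and in bulk RNA fewer cells holding a transcript and less of it per cell cannot be told apart.

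**Figure D1:**
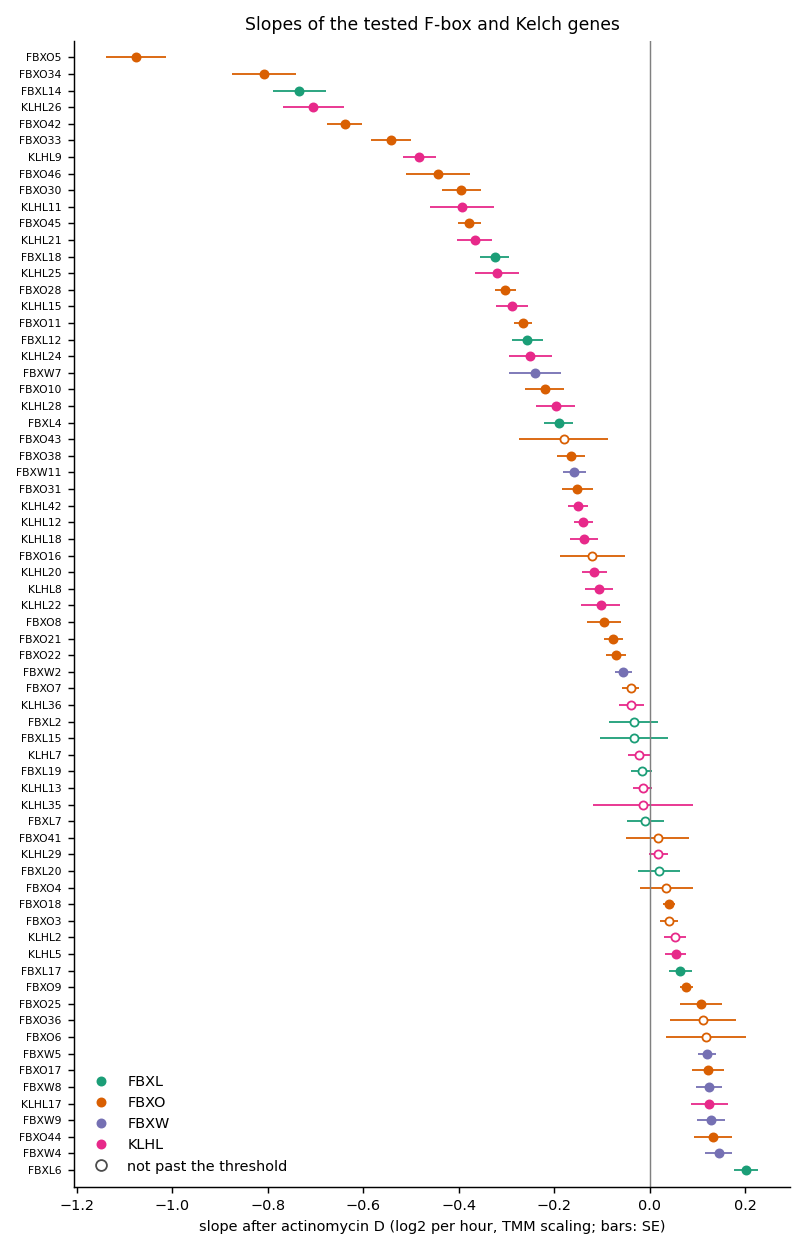
Slope of 68 of the 69 tested members in log2 units per hour of actinomycin D (x axis, TMM scaling), ordered from the steepest fall to the highest rise and coloured by family; bars are standard errors from edgeR and open symbols mark members not past an adjusted p of 0.05. The slopes run from -1.08 for FBXO5 to 0.20 for FBXL6, and with scaling to GAPDH and ACTB none of the rises passed the threshold.

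The plot of slopes has a long tail on the left and a short one on the right. If the slope is read as exponential decay, 7 of the 37 members that fell had a half-life under 2 h, 19 had one under 4 h, and 7 had one over 8 h. These half-lives rest on TMM scaling and were shorter with GAPDH and ACTB scaling. Of the 69 tested members, 36 (52.2%) had all 4 h libraries below all 0 h libraries, where 33.3% of all genes did, and 16 (23.2%) had them all above, where 29.5% of all genes did. Against 0 h, 19 members were more than 2-fold lower at 4 h while 0 were more than 2-fold higher. Neither these 2-fold counts nor the half-life counts were made over all genes. The 5th and 95th percentiles of the slope were -0.68 and 0.13 in the members and -0.49 and 0.16 in all genes. The tail was thus longer on the falling side in both.

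FBXO5 (EMI1) blocks the anaphase-promoting complex, the ligase that drives cells out of mitosis, and had the steepest slope of the members. It stood at 61.2, 70.3 and 77.0 CPM at 0 h, at 38.8, 42.0 and 39.0 at 1 h, at 10.1, 14.2 and 10.3 at 2 h and at 4.46, 3.78 and 4.87 at 4 h. Each time point lay wholly below the one before it. FBXO5 fell 16.0-fold by 4 h, with a slope of -1.08 ± 0.062 (SE, edgeR adjusted p = 1.45e-09) and a half-life of 0.929 h. At 0 h FBXO5 was also the most abundant member per kilobase of transcript, at 33.8 ± 3.88 CPM per kb (SD, n = 3).

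FBXO34 came next among the members, at 32.9, 33.5 and 30.9 CPM at 0 h, 23.9, 26.5 and 20.1 at 1 h, 6.48, 8.54 and 7.17 at 2 h and 4.34, 3.88 and 4.43 at 4 h. Its largest step lay between 1 and 2 h, and no time points overlapped. It fell 7.70-fold by 4 h, with a slope of -0.81 ± 0.067 (SE, edgeR adjusted p = 3.82e-08). FBXO46, its closest relative, was at 10.1, 10.6 and 10.1 CPM at 0 h, at 7.20, 7.68 and 7.33 at 1 h, at 3.89, 3.05 and 2.91 at 2 h and at 4.11, 2.71 and 3.43 at 4 h. The libraries at 2 and 4 h overlapped, and both times lay below 0 and 1 h. FBXO46 fell 3.02-fold by 4 h, with a slope of -0.44 ± 0.068 (SE, edgeR adjusted p = 2.7e-05).

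FBXL14, which targets SNAIL family transcription factors, went from 10.5, 11.5 and 12.1 CPM at 0 h to 10.2, 8.66 and 7.33 at 1 h, 5.28, 3.97 and 4.36 at 2 h and 1.88, 1.16 and 1.44 at 4 h. No time points overlapped, although the lowest library at 0 h was close to the highest at 1 h, and the fall by 4 h was 7.67-fold (slope -0.73). KLHL26, a Kelch protein of little known function, fell 6.48-fold, from 8.84, 8.81 and 11.1 CPM at 0 h to 1.06, 1.55 and 1.77 at 4 h (slope -0.70). FBXO42, an adaptor for p53, fell 5.52-fold, from 44.7, 46.7 and 46.9 CPM at 0 h to 9.74, 8.04 and 7.30 at 4 h (slope -0.64). In all of these the 0 and 4 h libraries lay far apart.

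FBXO33 fell from 18.6, 20.0 and 19.0 CPM at 0 h to 3.17, 4.55 and 4.76 at 4 h (slope -0.54). FBXO30, a ligase adaptor known from muscle atrophy, fell from 43.3, 37.7 and 41.4 CPM to 15.0, 14.4 and 14.9 (slope -0.39). Neither overlapped between 0 and 4 h. The edgeR adjusted p was 2.02e-08 for FBXO33 and 3.76e-07 for FBXO30.

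**Figure D2:**
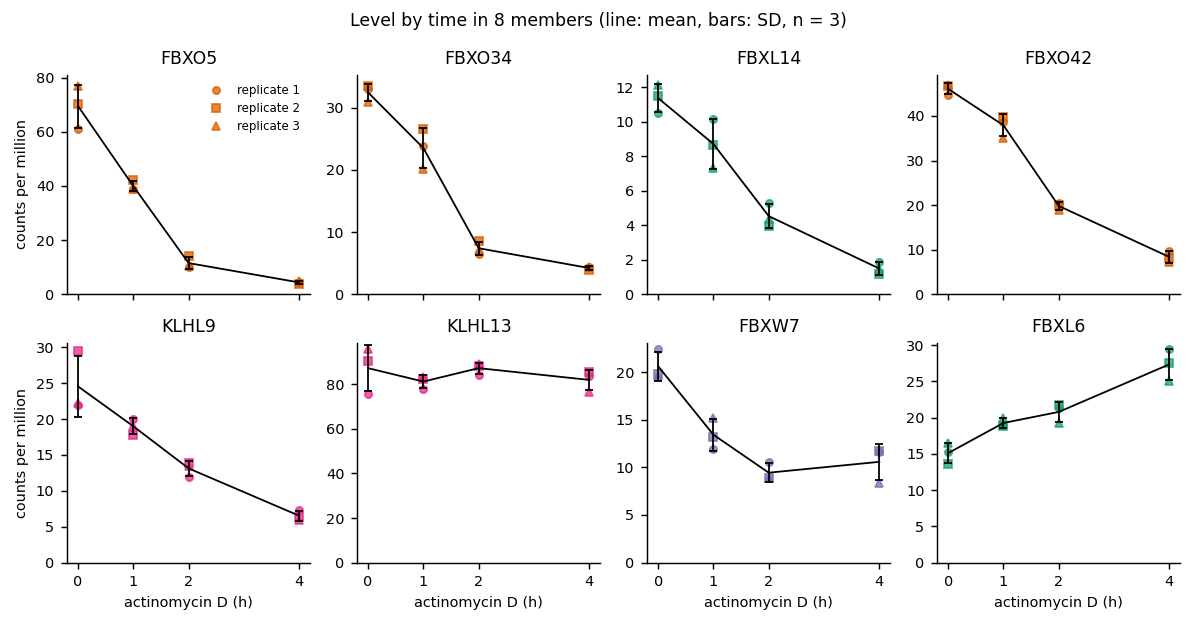
Level in CPM (y axis, TMM scaling, from 0) against hours in actinomycin D (x axis) for 8 members; symbols are the 3 replicates, the line joins the means and bars are SDs (n = 3). FBXO5, FBXO34, FBXL14, FBXO42 and KLHL9 fell throughout and KLHL13 stayed between 75.8 and 95.7 CPM. FBXW7 had its lowest mean under TMM at 2 h, where its libraries overlapped those at 4 h. FBXL6 was higher at 4 h, a difference of 0.85 log2 units that became 0.31 under GAPDH and ACTB scaling.

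The 3′UTRs of the steepest fallers were searched for ATTTA (with U for T in the mRNA), the core letters of AU-rich elements, on the mRNA strand and with overlapping matches counted. Of 9 members with steep falls, 8 held at least 1 match and FBXL14 had none in its 755-base 3′UTR. A 30-base window of each 3′UTR with the most matches is given below from the GENCODE version 44 transcripts, with the pentamer in capitals, to show how the letters lie in the shortest-lived members. Where 2 or more matches share the window, each is in capitals. Coordinates are those of GRCh38.
FBXO5 (ENST00000229758.8, chr6:152970969-152970998, minus strand): aatatttttacaATTTAatgagaaaaagtt
FBXO34 (ENST00000313833.5, chr14:55352666-55352695, plus strand): tctaaactctaaATTTAcgagctgtacaaa
KLHL26 (ENST00000300976.9, chr19:18670459-18670488, plus strand): atatttccctttATTTAataaaaatgttat
FBXO42 (ENST00000375592.8, chr1:16247993-16248022, minus strand): agcaaatATTTAtccgtATTTAttgaaaat
FBXO33 (ENST00000298097.8, chr14:39399104-39399133, minus strand): atagcctggtagATTTAtatgcaatgcact
KLHL9 (ENST00000359039.5, chr9:21331003-21331032, minus strand): taATTTAacttgcatttgcttgcATTTAtt
FBXO46 (ENST00000317683.4, chr19:45710972-45711001, minus strand): cctcccgttattATTTAagctactgccatc
FBXO30 (ENST00000237281.5, chr6:145797214-145797243, minus strand): aattagtATTTActagtATTTAaaatttta

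Of these 9, FBXO42, KLHL9 and FBXO30 had more than 1 match within 30 bases. So did 43.2% of the members that fell, 34.6% of all protein-coding genes that fell and 27.1% of all tested protein-coding genes. The number of matches in the whole 3′UTR ran from 1 in FBXO34 and 2 in FBXO5 to 28 in the 6604-base 3′UTR of FBXO30. The pentamer is common: it was in the 3′UTR of 74.9% of all tested protein-coding genes. It was in 34 of the 37 members that fell, where 85.5% of all such genes that fell had it. For rises these were 9 of the 13 members and 59.9% of genes, and for the others 15 of the 19 members and 77.8% of genes. Per kilobase of 3′UTR the Spearman correlation with the slope was -0.11 across the 69 members and -0.23 across 11378 genes, as a description across genes, which are not replicates and share length and base composition.

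Exon number was set beside the calls next. Among the 24 tested members with 1 to 5 exons, 19 fell and 0 rose (0 also at an unadjusted p below 0.05, and 0 by DESeq2's test, but 1, FBXO36, with the replicate block), where 46.7% of the 2994 tested genes with so few exons fell and 23.1% rose. Members with 6 to 10 exons were split between 10 that fell and 8 that rose of 24, where 30.2% of such genes fell and 32.7% rose. Of 21 members with 11 or more exons 8 fell and 5 rose, where 26.6% of such genes fell and 33.5% rose. The median transcript of the members that fell had 1.09 exons per kilobase and a 3′UTR of 2641 bases, against 2.74 exons per kilobase and 1207 bases in those that rose. Over all genes the same medians were 1.95 and 1899.5 bases for those that fell, and 4.43 and 857 bases for those that rose. KLHL9, whose transcript is a single exon of 5740 bases, is at the low end of this scale.

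In the plot of slope and exon density FBXO5 lies apart from the other members, with 2.43 exons per kilobase and the steepest slope. FBXL6, at the other end of the slopes, has 5.16 exons per kilobase and a 3′UTR of 100 bases. The highest exon density among the members was that of FBXO16, at 7.18, and its slope of -0.12 was not past the threshold.

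Early loss was read from 1 h against 0 h. Without a replicate block, only FBXO5, FBXO34 and FBXW7 had fallen past the threshold of edgeR's test at 1 h (3 of 69, against 2.19% of all genes). In that fit 0 members had risen (0.341% of all genes, and 3 members at an unadjusted p below 0.05, with 0 by DESeq2). FBXO5 was 1.74-fold lower (adjusted p = 0.00163) and FBXO34 1.38-fold lower (adjusted p = 0.0428). When replicate numbers entered the fit as a block, 15 members had fallen (10.4% of all genes) and 4 had risen (6.23% of all genes), the latter FBXL6, FBXW8, KLHL22 and FBXW5. The falls that the block added were those of FBXL14, FBXO28, FBXO30, FBXO33, FBXO42, FBXO45, FBXO46, KLHL9, KLHL11, KLHL12, KLHL15 and KLHL28. Their differences at 1 h ran from -0.47 log2 units in FBXO46 to -0.17 in FBXO28. All 3 calls of the fit without the block were lost without replicate 1 and without replicate 2. In these cases 9 members each were lower at an unadjusted p below 0.05 (and 2 and 0 higher). Without replicate 3, FBXO5 and FBXW7 were kept. Replicates were left out only in fits without the block.

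FBXW7, the adaptor that marks cyclin E, MYC, JUN and NOTCH1 for degradation, was at 22.4, 19.9 and 19.6 CPM at 0 h, 11.9, 13.2 and 15.2 at 1 h, 10.6, 8.85 and 8.91 at 2 h and 11.6, 11.7 and 8.41 at 4 h. All later libraries lay below all 0 h libraries, while 2 and 4 h overlapped. It had fallen by 0.62 log2 units at 1 h (edgeR adjusted p = 0.0266), and from 1 h to 4 h the difference was -0.34, not past the threshold (edgeR adjusted p = 0.0624, and 0.0176 with the replicate block). This later difference was -0.48 with library totals (adjusted p = 0.0124) and -0.78 under GAPDH and ACTB scaling (adjusted p = 0.000433). The slope over the whole course was -0.24 ± 0.055 (SE, edgeR adjusted p = 0.00114).

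Against 0 h, 35 members were lower at 4 h (31.9% of all genes) and 11 higher (27.7% of all genes) past the threshold. With the replicate block these were 38 lower (36.4% of all genes) and 16 higher (36.1% of all genes), the added calls being falls of FBXO7, FBXO8 and KLHL22 and rises of FBXO3, FBXO25, FBXO36, KLHL2 and KLHL5. Under GAPDH and ACTB scaling 52 were lower (63.3% of all genes) and 1, FBXL6, higher (0.923% of all genes). Between 1 and 4 h, 33 were lower (28.7% of all genes) and 7 higher (24.3% of all genes), and with the replicate block 37 were lower (33.4% of all genes) and 16 higher (34.5% of all genes). The 7 without the block were FBXL6, FBXW4, FBXW9, FBXW8, FBXW5, FBXO9 and KLHL2, and with scaling to GAPDH and ACTB none of them was called.

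Among the 12 members known for roles in the cell cycle and mitosis, all tested, 7 fell and 1 rose, beside 37 and 13 of all 69 members and 32.4% and 29.9% of all genes. Besides FBXO5 and FBXW7, the mitotic Kelch adaptors KLHL9, KLHL21, KLHL18 and KLHL22 fell, and so did FBXO31, which targets cyclin D1. KLHL21, which directs Aurora B to the spindle midzone, fell from 44.6, 39.0 and 32.0 CPM at 0 h to 16.9, 13.9 and 11.9 at 4 h (slope -0.37), without overlap. KLHL18, an Aurora A adaptor, had a slope of -0.14 and FBXO31 one of -0.15.

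KLHL22, which takes PLK1 off kinetochores, was at 22.2, 19.7 and 25.2 CPM at 0 h, 24.2, 23.3 and 30.9 at 1 h, 20.1, 22.6 and 26.7 at 2 h and 16.3, 16.4 and 20.6 at 4 h. Its libraries at 0 and 4 h overlapped, and its slope of -0.10 (edgeR adjusted p = 0.0409) was not past the threshold when either replicate 1 or replicate 2 was left out. FBXW5, which targets the centriole protein SAS-6, was the 1 that rose, with a slope of 0.12 that became -0.015 under GAPDH and ACTB scaling. The slopes of FBXL7 (-0.0089), KLHL13 (-0.014), FBXO4 (0.035) and FBXO43 (-0.18) did not pass the threshold, although that of FBXO43 was -0.28 and past it without replicate 3.

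Of the 11 members that recognise signalling proteins or known degrons, 8 fell and 0 rose (0 also at an unadjusted p below 0.05, and 0 by DESeq2's test). Beside them, 37 and 13 of all 69 members and 32.4% and 29.9% of all genes fell and rose. This list was chosen with earlier results of these data known. FBXO11, an adaptor for BCL6, went from 95.4, 97.9 and 107 CPM at 0 h to 48.1, 54.1 and 46.4 at 4 h (slope -0.26), and FBXW11 (β-TrCP2), which reads phosphorylated β-catenin and IκB, from 74.4, 81.8 and 77.9 to 47.6, 56.3 and 48.9 (slope -0.16). Neither overlapped between these times. KLHL25, which targets 4E-BP1, had a slope of -0.32, KLHL15 -0.29, KLHL24 -0.25, KLHL12, an adaptor for Dishevelled and SEC31, -0.14 and KLHL20 -0.12. The 3 not past the threshold were FBXL2 (-0.033), FBXL15 (-0.033) and FBXL20 (0.019).

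Smaller groups differed in how much could be tested. Of the 5 FBXO members in the glycoprotein list, which need not all bind glycoproteins, FBXO17 (slope 0.12) and FBXO44 (0.13) rose under TMM scaling. Under GAPDH and ACTB scaling these 2 were at -0.014 and -0.0026. FBXO6 (0.12) was not past the threshold, and FBXO2 and FBXO27 had at most 2 counts in a library. Of the 6 members known from muscle only FBXO30 was tested. FBXO32 (atrogin-1) had at most 11 counts, KLHL41 9 and KLHL31 5 in a library, and FBXO40 and KLHL40 had none. FBXL4, a mitochondrial protein, fell (slope -0.19), while FBXO7, known from early-onset parkinsonism, had a slope of -0.040 that was not past the threshold (edgeR adjusted p = 0.0596). It was past it with the replicate block (0.0404), without replicate 1 (0.0310), over 1, 2 and 4 h only (0.00867), with library totals (0.00203) and under GAPDH and ACTB scaling (6.7e-06).

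FBXO45, which works with the ligase PAM at synapses, fell from 53.6, 59.1 and 58.9 CPM at 0 h to 18.2, 20.2 and 22.1 at 4 h (slope -0.38), and these libraries did not overlap. FBXO41, a neuronal F-box gene, had a slope of 0.017, not past the threshold, and was at 2.42 to 3.36 CPM at 0 h. FBXL16 and KLHL1, known from neurons, and KLHL3, known from the kidney, had at most 6, 1 and 5 counts in a library. KLHL2, which like KLHL3 targets WNK kinases, had a slope of 0.052 (edgeR adjusted p = 0.0582, and 0.0304 with the replicate block). FBXL19, which binds CpG islands, was at -0.017.

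The members that rose under TMM scaling were led by FBXL6, at 15.2, 13.7 and 16.5 CPM at 0 h, 19.0, 18.8 and 20.0 at 1 h, 21.3, 21.8 and 19.3 at 2 h and 29.5, 27.5 and 25.1 at 4 h. The 4 h libraries lay above all others and the 0 h libraries below all others. The difference at 4 h was 1.81-fold, with a slope of 0.20 ± 0.025 (SE, edgeR adjusted p = 2.92e-06). Under GAPDH and ACTB scaling the slope was 0.064 and not past the threshold (edgeR adjusted p = 0.0637), while the difference at 4 h was 0.31 log2 units and past it (adjusted p = 0.0303).

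FBXW4 was at 16.7, 14.2 and 19.2 CPM at 0 h and at 25.3, 23.3 and 24.8 at 4 h (slope 0.14, and 0.0078 under GAPDH and ACTB scaling). FBXW8, the adaptor of CUL7, was at 18.0, 16.6 and 20.4 CPM and at 23.9, 27.2 and 28.0 (slope 0.12). FBXW5 was at 57.6, 50.4 and 54.6 CPM and at 76.7, 72.7 and 80.2. In all of these the 4 h libraries lay above the 0 h libraries. The slopes of FBXW9 (0.13), KLHL17, also called actinfilin (0.12), FBXO25 (0.11) and FBXO9 (0.077) were past the threshold too, and each of these was below 0 under GAPDH and ACTB scaling.

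FBXO18 (FBH1), a helicase that acts at stalled replication forks, was at 102, 106 and 99.4 CPM at 0 h and at 113, 116 and 112 at 4 h, with a slope of 0.041 under TMM and of -0.095, past the threshold, under GAPDH and ACTB scaling. FBXO9 and KLHL5 turned in the same way. Leaving out 1 replicate at a time, 7 of the 13 rises and 32 of the 37 falls were kept in every case. The rises lost in at least 1 case were those of FBXL17, FBXO17, FBXO18, FBXO25, KLHL5 and KLHL17, and the falls lost were those of FBXO8, FBXO22, FBXW2, KLHL8 and KLHL22. Without replicate 1 the number of rises was 8.

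By family, 14 of 22 KLHL (63.6%), 15 of 28 FBXO (53.6%), 5 of 12 FBXL (41.7%) and 3 of 7 FBXW members (42.9%) fell, where 32.4% of all genes fell. FBXW was the family without a member between the calls: FBXW7, FBXW11 and FBXW2 (slope -0.056) fell, and FBXW4, FBXW5, FBXW8 and FBXW9 rose under TMM scaling, a call that none kept under GAPDH and ACTB scaling. Of the others, 2 KLHL (KLHL5 and KLHL17), 5 FBXO and 2 FBXL members rose, where 29.9% of all genes rose. Differences between the families were not tested.

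**Figure D3:**
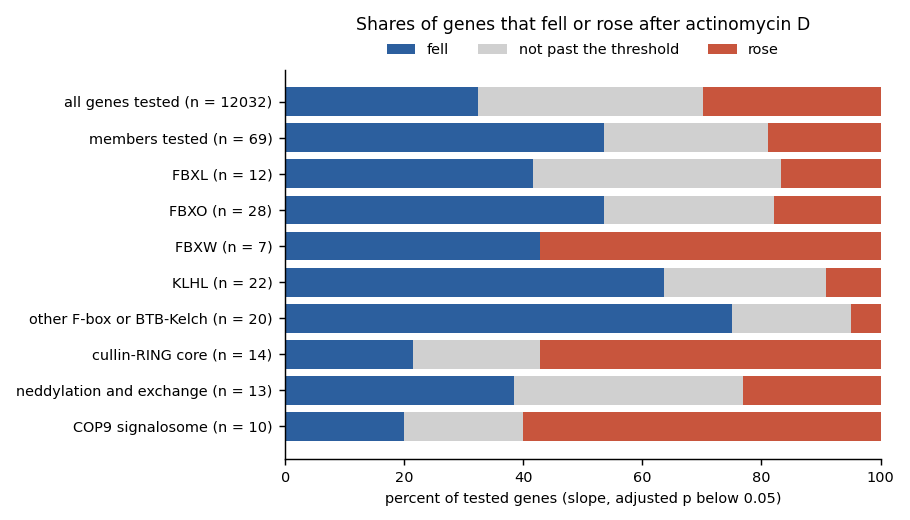
Percent of tested genes whose slope fell (blue), rose (red) or did not pass an edgeR adjusted p of 0.05 (grey), under TMM scaling, for all genes, the tested members, the 4 families and 4 lists of other ubiquitin ligase genes. Members fell in 53.6% and all genes in 32.4%, the cullin-RING core fell in 3 of 14 genes, and none of the members' rising slopes was called under GAPDH and ACTB scaling.

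The plot of shares sets the adaptors beside the rest of the machine. Of 14 tested genes of the cullin-RING core, 3 fell and 8 rose under TMM scaling, and under GAPDH and ACTB scaling 8 fell and 1 rose. The scaffolds of both adaptor classes were among those that fell, CUL1 from 153 to 91.0 CPM (slope -0.19) and CUL3 from 172 to 112 CPM (slope -0.16), as means at 0 and 4 h, while the F-box linker SKP1 went from 332 to 432 CPM (slope 0.10) and the RING protein RBX1 from 61.9 to 74.7 CPM (slope 0.082). Of 13 genes of neddylation and adaptor exchange, 5 fell and 3 rose. DCUN1D3 had the lowest slope of these (-0.51), the exchange factor CAND1 was at -0.042, and NEDD8 at 0.11. Of 10 COP9 signalosome and deneddylase genes, 2 fell (COPS2 at -0.085 and the NEDD8 protease SENP8 at -0.51) and 6 rose, with GPS1 at 0.16. Under GAPDH and ACTB scaling, 10 of the 13 and 7 of the 10 fell and none rose.

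F-box and BTB-Kelch genes that carry other names were listed apart, and of 20 tested 15 fell and 1 rose (LZTR1, slope 0.12), with 18 falls and 0 rises under GAPDH and ACTB scaling. KBTBD7 (-0.83) and KBTBD6 (-0.58), which act as a pair on CUL3, and CCNF, or cyclin F, the protein that gave the F-box its name (-0.51), had the lowest slopes. SKP2, which targets the inhibitor p27, was at 0.024 and not past the threshold, and KEAP1, the adaptor for NRF2, fell at -0.13.

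Close relatives were compared within each library as the log2 ratio of their counts, which does not depend on the scaling. Of 18 pairs listed, 9 had both genes above the filter. The slope of the ratio was tested by an exact two-sided permutation of the 12 time labels (369600 arrangements), and p-values were adjusted over the 9 pairs. It was past the threshold in 4, and in the same 4 when labels were permuted only within replicates.

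KLHL9 and KLHL13 act together as CUL3 adaptors for Aurora B in mitosis. KLHL9 went from 21.9, 29.4 and 22.3 CPM at 0 h to 20.1, 17.8 and 19.1 at 1 h, 12, 13.9 and 13.5 at 2 h and 7.28, 6.30 and 5.97 at 4 h, each time below the one before. KLHL13 was at 75.8, 90.3 and 95.7 CPM at 0 h and at 83.8, 85.5 and 76.8 at 4 h, and these overlapped. Their log2 ratio went from -1.84 ± 0.25 to -3.65 ± 0.12 (SD, n = 3), a slope of -0.47 per hour in which the 3 replicates lay between -0.53 and -0.42, at an exact permutation p = 5.41e-06, the smallest these arrangements can give (adjusted 4.87e-05).

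FBXO5 fell faster than FBXO43 (EMI2), its counterpart in meiosis, with a ratio slope of -0.85 (exact permutation p = 8.12e-05, adjusted 0.000244). FBXO43 was at 2.55, 3.39 and 2.65 CPM at 0 h and at 1.41, 1.55 and 2.66 at 4 h, and these few counts overlapped. FBXO34 fell faster than FBXO46, with a ratio slope of -0.36 (exact permutation p = 7.58e-05, adjusted 0.000244). The ratio of KLHL17 to KLHL20 rose by 0.24 per hour (exact permutation p = 0.000198, adjusted 0.000444), and its libraries at 0 and 4 h did not overlap.

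The plot of ratios also shows the 5 pairs that did not pass the test. The 2 β-TrCP genes, FBXW11 and BTRC, had slopes of -0.16 and -0.21 and a ratio slope of 0.051 (exact permutation p = 0.0808, adjusted 0.146), and FBXO10 and FBXO11 had slopes of -0.22 and -0.26 and a ratio slope of 0.047 (exact permutation p = 0.187, adjusted 0.28). In both of these pairs the ratios at 0 and 4 h did not overlap and were higher at 4 h. FBXL2/FBXL20 was at -0.055, or -0.18 and past the threshold without replicate 1, KLHL25/ENC1 at 0.016 and FBXO6/FBXO44 at -0.029. The ratios of FBXL2/FBXL20 spread from -1.02 to 0.40 at 4 h and those of FBXO6/FBXO44 from -4.33 to -2.29 at 2 h. These 5 results do not show equal rates. FBXO6 and FBXO44 shared 37 stretches of 75 bases between their transcripts, so their counts can be mixed, and the other 8 pairs shared 0.

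Per kilobase of transcript at 0 h, FBXO5 was followed by FBXO7 (31.8 ± 2.72 CPM per kb), FBXO18 (28.9 ± 0.892), KLHL13 (26.1 ± 3.08) and FBXO3 (24.0 ± 1.42, all SD, n = 3), and the libraries of neighbours in this order overlapped. The lowest tested members were FBXO41 (0.399 ± 0.0649 CPM per kb), KLHL35 (0.468 ± 0.296), FBXO25 (0.613 ± 0.102), FBXL20 (0.677 ± 0.111) and FBXO43 (0.879 ± 0.140). This order rests on the lengths of canonical transcripts, such as 10356 bases for FBXO25 and 10332 for FBXL20. Which form of each transcript these cells hold was not tested. FBXO3 had a slope of 0.041 (edgeR adjusted p = 0.0712, and 0.0113 with the replicate block) and FBXO36 one of 0.11 (0.166, and 0.0312 with the block). Around the filter, KLHL35 (mean 10.7 counts) and FBXO6 (15.3) were just inside, and FBXO48 (9.08) and FBXL8 (9) just outside. FBXL19, FBXO22, FBXO3 and KLHL7 have antisense genes in the table and KLHL23 a read-through with PHOSPHO2, and whether reads were counted by strand is not given in the sources used here.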

How the data were processed

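RNA-Seq was analysed in 12 libraries of A673 cells after 0, 1, 2 and 4 h in 5 µM actinomycin D, with groups and replicate numbers taken from the sample titles. The deposited values are whole-number read counts for each gene symbol, which the authors did not normalise. The labels name FastQC, STAR and hg19, without versions. The study's general methods describe Salmon on GRCh38 with tximport, without naming these libraries, and the counter, annotation and use of strand are not given in the sources used here. All columns were matched to samples.

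Counts were fitted with edgeR 4.0.16 in R 4.3.3 (glmQLFit, glmQLFTest) on the 12032 genes that averaged 10 counts or more per library, with TMM factors and library totals over all genes. Time was a number of hours for slopes and 4 groups for 1 h against 0 h, 4 h against 0 h and 4 h against 1 h, over all libraries and without a block. The Benjamini-Hochberg adjustment ran over all genes tested, with a threshold of 0.05. Standard errors come from the F statistic of each test, and a half-life is -1 divided by the slope. The common biological coefficient of variation was 0.0909. Replicates of a time differed by more than sampling noise. The labels call them biological replicates, and deviations from the time means correlated between libraries of the same replicate number (r from 0.348 to 0.657 over 18 pairs) and not between others (-0.439 to 0.0951 over 36 pairs), so the numbers pair the samples. Counts of members called with the replicate block are given for each comparison. Values with the block are given only for some of the calls that it changes. On simulated data with 11982 genes, the slope fit recovered 17 of 44 genes changed by 0.1 log2 units per hour, 37 of 45 at 0.25, 49 of 50 at 0.5 and 56 of 56 at 1, with 4 false calls. The simulation left 11787 genes unchanged, gave the others falls or rises at random and held no pairing of libraries. The data differ in the share of changed genes and in the pairing, so these rates need not hold for them.

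Ratios of related genes used a pseudocount of 0.5 and an exact permutation test in numpy 2.4.6. Exons, lengths and 3′UTRs are those of Ensembl canonical transcripts in GENCODE version 44 on GRCh38, matched by symbol or RefSeq synonym for 98.4% of the tested genes and for all 69 tested members. They were not measured in these cells, which may hold other forms of a transcript. Alternatives were DESeq2 1.42.0, other scalings and count filters, the replicate block, leaving out each replicate and other time points. Named were 9 of the 10 steepest falls and the 10 highest rises among members past the threshold that moved the same way in all replicates, members of fixed role lists, the pairs, and the 5 highest and 5 lowest levels per kilobase. Other members were named after their values were seen. The members and lists were chosen with earlier results of these data known. Individual values of 2 F-box genes are not reported here, and 1 of them is included in the counts. The depth limits slow changes more than fast ones.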

Additional observations from a re-analysis of the deposited data

How the results depend on the processing

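Counts of falling members stayed within 1.5 times those reported for the slope (33 to 53), 4 h against 0 h (34 to 52) and 4 h against 1 h (28 to 47), except that 0, 1 and 2 h only gave 23 falling slopes. The highest counts of falls for the slope and for 4 h against 0 h came with GAPDH and ACTB, where 64.2% and 63.3% of all genes fell. Rising slopes numbered 6 with library totals, 0 with GAPDH and ACTB (0.931% of all genes), 4 with 0, 1 and 2 h only, 6 with 1, 2 and 4 h only and 8 to 10 without 1 replicate. At 4 h against 0 h, rises numbered 6 with library totals, 1 with GAPDH and ACTB (0.923% of all genes) and 6 to 9 without 1 replicate, and at 4 h against 1 h 2, 0 and 4 to 6. At 1 h against 0 h, falls numbered 6 with GAPDH and ACTB and 0 to 2 without 1 replicate. With the replicate block, falls and rises at 1 h were 15 and 4 (10.4% and 6.23% of all genes). Those at 4 h against 0 h were 38 and 16 (36.4% and 36.1%), and rises at 4 h against 1 h were 16 (34.5%). The slope gave 38 falls and 16 rises (35.1% and 35.3%), with the block adding calls and removing none among the slopes. For the counts given here without a share, none was made over all genes, so they cannot be set against all genes. Past the threshold in the ratio test were 4 to 5 pairs without 1 replicate and 4 with the block or a pseudocount of 5. The cause of these shifts was not tested beyond the construction of the settings.

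Under GAPDH and ACTB scaling the slope turned negative for 19 members, among them FBXL17 (-0.070), KLHL5 (-0.081), FBXL20 (-0.11), FBXO17 (-0.014), FBXO18 (-0.095), FBXO25 (-0.028), FBXO44 (-0.0026), FBXO9 (-0.059), FBXW5 (-0.015), FBXW8 (-0.011), FBXW9 (-0.0078), KLHL17 (-0.010) and KLHL2 (-0.083), and the difference at 4 h for 18, among them FBXL17 (-0.28), FBXL7 (-0.49), FBXO17 (-0.054), FBXO18 (-0.38), FBXO9 (-0.25), FBXW5 (-0.039), FBXW8 (-0.012), FBXW9 (-0.039), KLHL17 (-0.013) and KLHL2 (-0.37). Over 0, 1 and 2 h only, the slope of KLHL22 was 0.034.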
